A study of Mus musculus with 9 samples.

Results

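Interferon regulatory factors (IRFs) and STAT proteins are transcription factors, and 9 genes of the 2 families were examined in the choroid plexus of old mice with and without apolipoprotein E (ApoE), a lipid-carrying protein. The genes were Irf1, Irf2, Irf3, Irf5, Irf7, Irf8, Irf9, Stat2 and Stat3. Every probe set that the array annotation assigns to exactly 1 of these symbols was taken, which gave 18 probe sets for 9 of the 18194 genes that have such a probe set. Of these 18, 12 had a present call on 4 or more of the 9 arrays and were tested, among 21478 probe sets tested in all, and each of the 9 genes kept at least 1.

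The compared groups were 4 apoE-/- samples and 5 wild-type samples. Both were choroid plexus of male C57BL mice aged 78 weeks and fed normal chow, cut from frozen nervous tissue by laser capture and measured on 1 whole-genome mouse array per sample. The labels do not say how many animals the captures came from, whether animals were pooled, or how the Apoe allele was made, and a p-value here speaks only of the scatter among these samples, some of which may be technical. In such bulk tissue, fewer cells of a type and less RNA per cell cannot be told apart.

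When a cell senses viral or misplaced nucleic acid, kinases phosphorylate IRF3 and IRF7, which then switch on the genes of type I interferon. Interferon leaves the cell, binds its receptor, and through the JAK kinases activates a complex of STAT proteins with IRF9, called ISGF3, that binds interferon-stimulated response elements (ISREs) in its target genes. Some of the factors are themselves such targets, IRF7 foremost, so their transcripts rise after interferon, while others, such as IRF3 and IRF2, are made in most cells at all times and are controlled mainly as proteins. STAT3 serves chiefly the interleukin-6 family of cytokines, and type II interferon acts through STAT dimers on gamma-activated sites (GAS) and through IRF1.

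The arrays bore out the genotype labels at the targeted gene. Apoe read 12.2, 53.8, 23.5 and 13.5 in apoE-/- replicates 1 to 4, called absent on all 4, and 18252 to 23953.1 in wild-type samples. Epithelial markers of the choroid plexus were present on all 9 arrays for 12 of 13 listed genes, with a summed signal of 186385 to 216599 in apoE-/- and 174346 to 212187 in wild-type samples. Wild-type replicate 1 had the highest sum of the 9 arrays in 3 marker lists. The summed oligodendrocyte signal was 2540 to 4443 in apoE-/- samples, and 9338 in that replicate against 2609 to 3633 in the other wild-type samples. The neuron sum was 1558 to 2085 in apoE-/- samples, and 2568 in that replicate against 1688 to 1989 in the others. The B cell sum was 939 to 1652 in apoE-/- samples, and 4245 in that replicate against 726 to 1373 in the others. The macrophage sum of that replicate, 18041, was above the 11597 to 13657 of the other wild-type samples. It was within the 15500 to 22321 of apoE-/- samples. The share of present calls was 44.0% to 49.1% over the arrays.

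Irf7 was the only one of the 9 genes that passed the test, and it rose 2.12-fold in apoE-/- tissue. Signals below are the deposited linear intensities, differences are on the log2 scale, apoE-/- minus wild-type, and a change is called at an adjusted p below 0.05 (limma, Benjamini-Hochberg over all 21478 probe sets). When each gene was read by its brightest tested probe set, 1 of 9 was called higher and 0 lower, while 0.794% of all 11089 genes were called higher and 0.866% lower. Over single probe sets 1 of 12 was called higher, against 0.67% of all tested probe sets, and 0 lower, against 1.92%. Genes called in either direction made up 1.66% of all genes. By the brightest probe set 8 of the 9 genes were higher and 1, Irf2, was lower, against 53.4% of all genes that read higher. At an unadjusted p below 0.05 there were 6 of 9, against 14.8% of all genes. The median difference over the 9 genes was 0.31, against 0.02 over all genes tested.

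**Figure D1:**
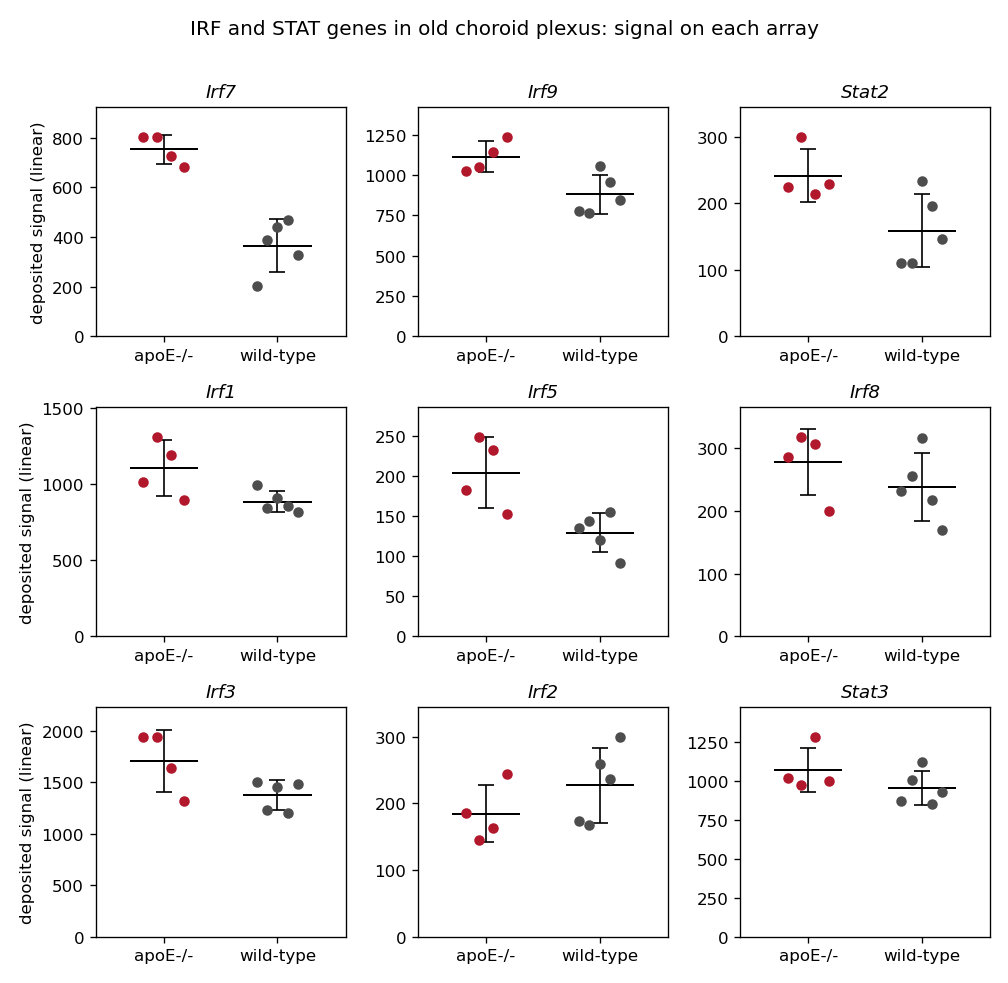
Deposited signal (linear, axis from 0) on every array, each gene by its brightest tested probe set, apoE-/- (n = 4, red) left and wild-type (n = 5, grey) right, with mean and SD bars. The groups do not overlap for Irf7 (683.2 to 804.4 against 201.2 to 469.0) and overlap for the other genes, for Irf9 only through wild-type replicate 3.

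Irf7, the factor that amplifies type I interferon production, read 801.9, 804.4, 727.1 and 683.2 in apoE-/- replicates 1 to 4, against 201.2, 387.5, 440.8, 469.0 and 328.0 in wild-type replicates 1 to 5 (probe set 1417244_a_at). Every apoE-/- sample was above every wild-type sample, and the apoE-/- samples lay close together while wild-type replicate 1 was far below its group. Groups that did not overlap with apoE-/- higher were found for 2.72% of all tested probe sets, and for 3.38% of all genes by the brightest probe set. The log2 level was 9.55 ± 0.11 in apoE-/- samples (SD, n = 4) and 8.47 ± 0.50 in wild-type samples (SD, n = 5). The difference was 1.08 ± 0.21 (SE), with a 95% interval of 0.64 to 1.53 and an adjusted p of 0.0136 by limma, rank 203 of the 21478 probe sets. The probe set was called present on all 4 apoE-/- arrays and on 4 of 5 wild-type arrays, and marginal on wild-type replicate 1. Leaving out 1 array at a time gave differences of 0.88 to 1.19 with adjusted p between 0.00622 and 0.0421. Without wild-type replicate 1, the sample with the high oligodendrocyte, neuron and B cell markers and the lowest Irf7, it was 0.88, and with neuron and oligodendrocyte markers as a covariate it was 0.89 (adjusted p = 0.00622 and 0.0149, limma).

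The promoter of Irf7 is shown because this was the gene that rose. It is given for the RefSeq window of GRCm38.p6 at chr7:141266375-141266674, minus strand, 250 bases before to 50 after the transcript start, 5′ to 3′, with no capitals because neither motif searched was in it:
Irf7: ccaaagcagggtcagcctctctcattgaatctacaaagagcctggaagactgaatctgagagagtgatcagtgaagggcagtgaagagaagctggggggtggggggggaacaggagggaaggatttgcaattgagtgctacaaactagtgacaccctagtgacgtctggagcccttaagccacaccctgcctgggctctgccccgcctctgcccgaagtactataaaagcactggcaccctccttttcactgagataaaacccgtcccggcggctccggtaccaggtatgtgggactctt
Motif cores were searched on both strands, the ISRE core TTTCNNTTTC (GAAANNGAAA on the other strand) and the GAS core TTCNNNGAA, which reads the same on both strands. They do not contain one another, though a stretch can hold both. Of 32851 RefSeq promoter windows of this length, 3.44% held the ISRE core and 8.3% the GAS core. That these letters are missing from the Irf7 window says nothing of elements with other spellings or further away. The transcript start used lies inside the gene, which reaches to base 141266499, so the bases before that outer end were only partly searched. Irf7 (from base 141263183) and Irf3 (from base 44997648) lie on chromosome 7, as does Apoe. A shared chromosome does not mean closeness, and linkage to the targeted gene was not tested.

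STAT2 and IRF9 are the partners of ISGF3. Stat2 read 224.0, 300.1, 213.9 and 228.6 in apoE-/- replicates, against 109.5, 109.7, 233.6, 196.0 and 146.4 in wild-type replicates (1450403_at). Wild-type replicate 3 was above 3 of the 4 apoE-/- samples, and the other 4 wild-type samples were below all of them. The difference was 0.59 ± 0.23 (SE; 95% interval 0.11 to 1.08), and it did not pass (adjusted p = 0.2, limma). The second Stat2 probe set, 1421911_at, was called absent on all 9 arrays, with signals of 126.7 to 217.0 in apoE-/- and 41.0 to 138.9 in wild-type samples, and was not tested.

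Irf9, the DNA-binding subunit that gives ISGF3 its specificity, read 1023.7, 1050.8, 1143.2 and 1237.1 in apoE-/- replicates, against 774.4, 767.3, 1054.4, 955.0 and 847.1 in wild-type replicates (1421322_a_at). The groups overlapped only through wild-type replicate 3, which was above apoE-/- replicates 1 and 2. The difference of 0.35 ± 0.12 (SE, 95% interval 0.09 to 0.61) had an adjusted p of 0.154 by limma. With 1 array left out the adjusted p was 0.0741 (without wild-type replicate 3) to 0.345. Thus both ISGF3 genes read higher in apoE-/- tissue without passing the test, and in both the exception was the same wild-type sample.

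IRF1 is induced by both interferon types and acts on genes of antigen presentation and guanylate-binding proteins. Irf1 read 1011.7, 1307.9, 1191.2 and 896.2 in apoE-/- replicates, against 991.4, 844.8, 906.3, 854.2 and 815.9 in wild-type replicates (1448436_a_at). Replicates 1 to 3 of apoE-/- were above all wild-type samples, and replicate 4 was within their range. Its difference of 0.31 ± 0.13 (SE; 95% interval 0.04 to 0.58) did not pass (adjusted p = 0.239, limma). Irf8, a factor of macrophage and dendritic cell development that type II interferon also induces, read 286.0, 317.7, 306.6 and 200.5 in apoE-/- replicates, against 231.5, 256.2, 316.0, 218.0 and 169.3 in wild-type replicates (1416714_at). The groups overlapped over most of their range, with a difference of 0.18 ± 0.19 (SE; 95% interval -0.23 to 0.58) and an adjusted p of 0.691 by limma. A second Irf8 probe set, 1448452_at, was called absent on all 9 arrays, at 26.2 to 217.4 in apoE-/- and 51.0 to 133.6 in wild-type samples.

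Against 53.4% of all genes, the 5 genes known to be induced by interferon (Irf1, Irf7, Irf8, Irf9 and Stat2) all read higher in apoE-/- tissue. Against 0.794% of all genes, 1 of the 5 was called higher. The 5 differed by 0.18 to 1.08 with a median of 0.35. Their mean deviation per array was 0.14 to 0.43 in apoE-/- samples and -0.49 to 0.12 in wild-type samples, with wild-type replicate 3 the highest of its group. Outside this class, Irf3 (0.31), Irf5 (0.60) and Stat3 (0.16) also read higher by the brightest probe set, and Irf2 (-0.35) read lower. The difference between the induced class and the constitutive genes was not tested.

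The promoters of the induced and constitutive genes are shown next to see which of them held the motif cores, and capitals mark the cores. Each line is 60 bases of the RefSeq window (GRCm38.p6, plus strand), Stat2 at chr10:128270250-128270309, Irf1 at chr11:53769898-53769957, Irf8 at chr8:120736170-120736229 and Irf2 at chr8:46739495-46739554:
Stat2: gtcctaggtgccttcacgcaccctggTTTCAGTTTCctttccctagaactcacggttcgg
Irf1: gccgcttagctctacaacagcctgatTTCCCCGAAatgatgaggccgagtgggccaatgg
Irf8: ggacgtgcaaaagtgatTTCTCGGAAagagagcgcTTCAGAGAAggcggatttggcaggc
Irf2: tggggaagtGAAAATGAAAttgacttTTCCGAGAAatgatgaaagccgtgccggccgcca
Stat2 held 1 ISRE core, 222 bases before the start, and Irf1 held 1 GAS core 90 bases before it. Irf8 held a GAS core at 171 and another at 153 bases before the start. Irf2, which did not read higher, held an ISRE core on the other strand and a GAS core, at 241 and 224 bases. Neither core was in the windows of Irf3, Irf5, Irf7, Irf9 and Stat3, nor in the second windows of Irf1 and Irf8. As for Irf7, the Irf5 and Stat3 windows were set on starts inside the gene (chr6:29526130-29541869 and chr11:100886806-100939594). The matches describe letters and not bound sites.

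Among the constitutive genes, IRF3 is the factor that starts type I interferon transcription. Its brightest probe set read 1938.6, 1935.2, 1638.0 and 1314.0 in apoE-/- replicates, against 1502.6, 1233.4, 1455.9, 1205.7 and 1485.7 in wild-type replicates (1426111_x_at). Replicates 1 to 3 of apoE-/- were above all wild-type samples and replicate 4 was among them. The difference was 0.31 ± 0.13 (SE; 95% interval 0.04 to 0.59; adjusted p = 0.241, limma). The other tested Irf3 probe set, 1435271_at, read 354.9, 447.9, 447.7 and 342.8 in apoE-/- replicates, against 425.1, 340.1, 365.2, 362.7 and 371.8 in wild-type replicates. These groups overlapped throughout, at 0.06 ± 0.13 (SE; 95% interval -0.21 to 0.34; adjusted p = 0.851, limma). So the higher reading of the first probe set was not shared by the second, and 2 further Irf3 probe sets without a present call were not tested. These read 224.1 to 327.3 in apoE-/- and 170.0 to 354.2 in wild-type samples (1416898_a_at), and 18.1 to 81.8 in apoE-/- and 16.3 to 75.5 in wild-type samples (1438721_a_at).

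IRF2, a constitutive factor that binds the same elements as IRF1 and often represses them, was the gene that read lower. Irf2 read 186.2, 145.4, 163.6 and 244.1 in apoE-/- replicates, against 173.8, 167.6, 259.7, 236.6 and 299.7 in wild-type replicates (1418265_s_at). Replicate 4 of apoE-/- was among the higher wild-type samples, and the other 3 were near the lowest ones. The difference of -0.35 ± 0.22 (SE; 95% interval -0.82 to 0.12) did not pass (adjusted p = 0.454, limma).

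IRF5 drives inflammatory cytokine genes and is best known from macrophages and dendritic cells. Irf5 read 182.2, 248.4, 232.5 and 152.3 in apoE-/- replicates, against 135.2, 144.2, 120.5, 154.4 and 92.0 in wild-type replicates (1460231_at). Only wild-type replicate 4 was above an apoE-/- sample, replicate 4. The difference was 0.60 ± 0.20 (SE; 95% interval 0.18 to 1.03; adjusted p = 0.137, limma). A second Irf5 probe set, 1449678_at, present on 1 array of each group and not tested, read 274.3, 474.8, 477.8 and 397.9 in apoE-/- samples and 182.5, 314.1, 207.1, 291.7 and 389.1 in wild-type samples.

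Stat3 was read by 3 tested probe sets that pointed in different ways. The brightest, 1460700_at, read 1018.8, 975.7, 1282.5 and 1001.8 in apoE-/- replicates, against 873.8, 1005.6, 1121.3, 851.2 and 929.4 in wild-type replicates, with a difference of 0.16 ± 0.12 (SE; adjusted p = 0.548, limma). The groups overlapped, and apoE-/- replicate 3 was the highest sample. Probe set 1426587_a_at read 591.9, 906.8, 499.1 and 464.7 in apoE-/- replicates, against 875.9, 719.1, 699.1, 760.3 and 777.9 in wild-type replicates. Here 3 apoE-/- samples were below all wild-type samples and replicate 2 was above all of them. The difference was -0.37 ± 0.17 (SE; adjusted p = 0.295, limma), and without apoE-/- replicate 2 it was -0.58 and passed (adjusted p = 0.0419).

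The dimmest tested Stat3 probe set, 1424272_at, read 162.0, 232.0, 159.5 and 151.7 in apoE-/- replicates, against 70.6, 29.8, 172.4, 186.7 and 106.3 in wild-type replicates, where it was absent on 2 arrays. Wild-type replicates 3 and 4 were within the apoE-/- range and the other 3 below it, at a difference of 0.81 ± 0.41 (SE; adjusted p = 0.344, limma). Another, 1459961_a_at, at 13.2 to 91.5 in apoE-/- and 38.4 to 74.4 in wild-type samples, was not tested. No single direction for Stat3 can be given from these probe sets. The other listed genes of the 2 families that were tested, Stat5a, Stat5b and Stat6, differed by -0.10 to 0.17. Of these, 0 of 3 were called, against 1.66% of all genes, with unadjusted p values of 0.502, 0.481 and 0.942 (limma). Irf4 (present on 1 wild-type array) and Stat4 (no present call) were not tested.

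**Figure D2:**
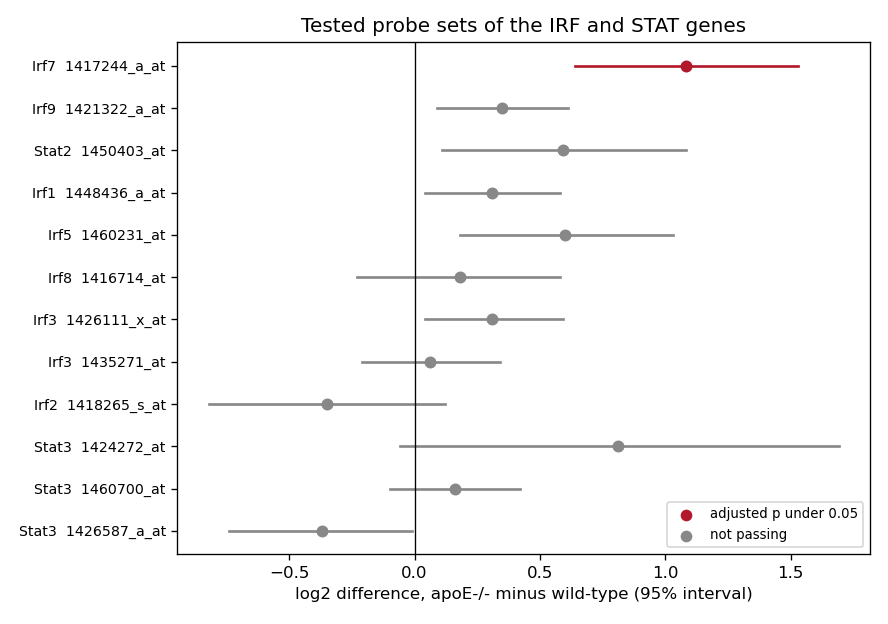
Log2 difference, apoE-/- minus wild-type, of the 12 tested probe sets with 95% intervals from limma. Red marks the only probe set called at an adjusted p below 0.05, Irf7 at 1.08; the 3 Stat3 probe sets run from -0.37 to 0.81.

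The genes whose levels followed Irf7 most closely over the 9 arrays were Usp18 (Pearson r = 0.991), Ifit3 (0.984), Rtp4 (0.974), Ifit1 (0.971) and Oas1a (0.969). Usp18 encodes a protease that removes ISG15 and restrains the interferon receptor, Ifit1 and Ifit3 encode proteins that bind viral RNA or its complexes, and Oas1a belongs to the oligoadenylate synthetases. All 5 are on the list of ISGF3 targets. The r values are a description, since the genes share the arrays and the difference between groups. Within groups, as deviations from group means, r was between 0.895 and 0.972. Oas1a was absent on all 5 wild-type arrays, so it entered the test only through apoE-/- samples, and its wild-type levels, on which its r also rests, were not called above background. Without wild-type replicate 1, the lowest array for all 5 genes and for Irf7, r over 8 arrays was 0.935 to 0.982. Without that array and apoE-/- replicate 2, the 2 farthest from the median of Irf7, r was 0.938 to 0.978.

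Among the other genes of the 2 families, Stat2 (r = 0.84, and 0.70 within groups) and Irf9 (0.80, and 0.47 within groups) came nearest to Irf7. Irf5 had r = 0.72 over the arrays but 0.19 within groups, and Irf1 0.49 and -0.19. For Irf5 and Irf1 the likeness was much lower within groups than over all arrays.

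**Figure D3:**
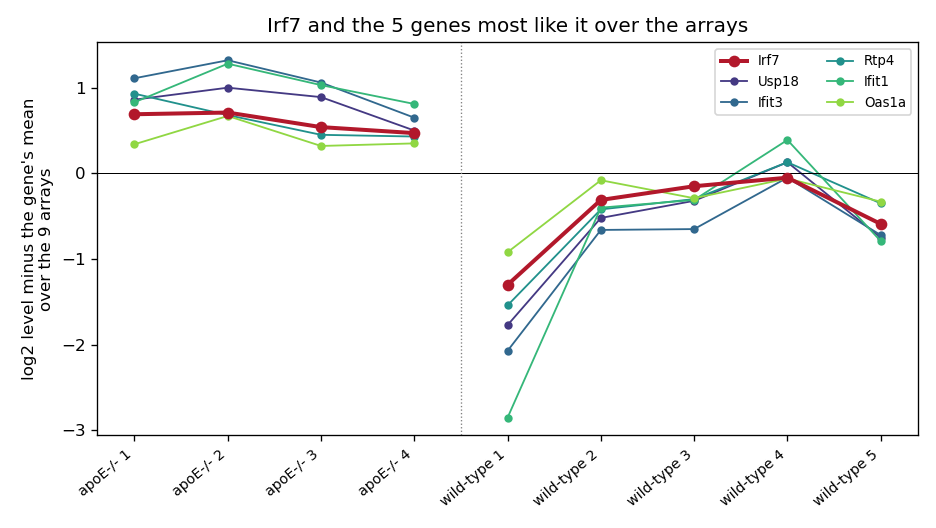
Log2 level of Irf7 (red) and the 5 most alike genes on each array, minus the gene's own mean over the 9 arrays, with apoE-/- arrays left of wild-type arrays. In apoE-/- samples Irf7 lay at 0.47 to 0.71, and in wild-type samples at -1.30 (replicate 1) to -0.05 (replicate 4), and the other genes ran close to it.

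Upstream of the factors, none of the 9 interferon genes on the list with a probe set was tested. Of these, 8 had no present call on any array, Ifng among them, and Ifnb1 was present on 1 wild-type array, at signals of 52.3 to 100.7 in apoE-/- and 65.6 to 127.6 in wild-type samples. Too few present calls were made for any ligand to be compared, which does not show that the ligands were absent.

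Of the receptors and JAK kinases, 8 were tested, with a median difference of 0.06. By the brightest probe set 0 were called higher, against 0.794% of all genes, and 1 lower, against 0.866%. That gene was Il6ra, the interleukin-6 receptor that signals through STAT3, at 79.9, 134.6, 93.3 and 130.0 in apoE-/- replicates, against 258.5, 184.4, 231.7, 169.6 and 136.7 in wild-type replicates. All apoE-/- samples were below all wild-type samples, by a narrow margin. The probe set was present on 1 of 4 apoE-/- arrays and 5 of 5 wild-type arrays. It thus passed the filter of 4 present calls only through the wild-type samples, where it was high. Its apoE-/- levels were called absent on 3 arrays. Of 20 alternatives that tested it, 6 kept the call. It fell by 0.89 ± 0.22 in log2 units (SE; limma adjusted p = 0.0436). Leaving out apoE-/- replicate 1, 2 or 3, or one of wild-type replicates 1 to 4, put the adjusted p at 0.0604 to 0.146.

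Il6st encodes gp130, the subunit that interleukin-6 family receptors share. Its probe set 1437303_at read 282.2, 288.7, 242.3 and 143.3 in apoE-/- replicates, against 446.3, 468.9, 331.4, 533.1 and 468.0 in wild-type replicates, and fell by 0.99 ± 0.20 in log2 units (SE; limma adjusted p = 0.0166). The groups did not overlap, and the adjusted p was 0.0553 without wild-type replicate 4. The 2 other tested Il6st probe sets, the brighter one included, differed by 0.15 (adjusted p = 0.47) and 0.05 (adjusted p = 0.927, limma), so the fall belonged to 1 of 3 probe sets. Ifnar1, a chain of the type I interferon receptor, differed by 0.16 by its brightest probe set and by -0.69 by another, and neither passed (adjusted p = 0.594 and 0.214, limma).

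Of the sensors, adaptors and kinases that activate IRF3, IRF5 and IRF7, 14 were tested, and the median was -0.02. Among them 1 was called higher and 0 lower, against 0.794% and 0.866% of all genes. Ifih1, the cytosolic RNA sensor MDA5 and itself interferon-induced, read 2138.6, 1691.4, 1823.6 and 2157.3 in apoE-/- replicates, against 1191.1, 1600.4, 1093.5, 1603.0 and 1272.4 in wild-type replicates. The groups did not overlap, and it rose by 0.55 ± 0.13 (SE, adjusted p = 0.038, limma). Leaving out apoE-/- replicate 1, 3 or 4, or one of wild-type replicates 1, 3 and 5, ended the call (adjusted p = 0.0675 to 0.113). Kinases and adaptors whose control is on the protein, such as Tbk1 (-0.15) and Mavs (-0.02), did not pass (adjusted p = 0.429 and 0.943, limma).

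Downstream, 11 of 24 tested ISGF3 targets were called higher and 0 lower, against 0.794% and 0.866% of all genes. Of the 24, 23 read higher, against 53.4% of all genes, and the median was 0.72. The lists were chosen with earlier results of these data known. Oas1a, one of the 11, and Ifit2, which was not called, were present on all 4 apoE-/- arrays and absent on all 5 wild-type arrays, so they entered the test only through the apoE-/- samples. Of the other 22 targets 10 were called higher, 21 read higher, and the median was 0.68. The count of 11 became 6 without apoE-/- replicate 2 and 7 without apoE-/- replicate 3, and between 8 and 11 without any other single array. Ifit3 read 2379.6, 2677.6, 2264.1 and 1738.0 in apoE-/- replicates, against 263.8, 684.7, 696.4, 1057.6 and 679.5 in wild-type replicates, and rose 3.64-fold (adjusted p = 0.00432, limma). Ddx60, an RNA helicase, rose 2.56-fold (adjusted p = 0.0037, limma). It was present on all 4 apoE-/- arrays and on 3 of 5 wild-type arrays, so the wild-type samples alone would not have passed it through the filter. Oasl2, an oligoadenylate synthetase-like protein, rose 2.60-fold (adjusted p = 0.00479, limma) and was absent on 1 of 5 wild-type arrays. In all 3 genes, which were named for their small p, the groups did not overlap. Over all genes 3.38% did not overlap with apoE-/- higher. Herc6 was the target that read lower, at -0.27 (adjusted p = 0.441, limma).

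Of the IRF1 and interferon-gamma targets, 5 of 16 were called higher and 0 lower, against 0.794% and 0.866% of all genes. All 16 read higher, against 53.4% of all genes, and the median was 0.48. The count was 2 when apoE-/- replicate 1, 2 or 3 was left out, and likewise for wild-type replicate 3, and without wild-type replicate 1 or 2 it was 3. Gbp3, a guanylate-binding protein, read 1109.6, 772.9, 836.3 and 1081.8 in apoE-/- replicates, against 291.9, 419.7, 478.2, 515.5 and 582.7 in wild-type replicates, and rose 2.08-fold (adjusted p = 0.0084, limma). B2m, the light chain of MHC class I, rose 1.37-fold by its brightest probe set (adjusted p = 0.00945, limma). In both genes, which were named for their small p, the groups did not overlap, while Irf1 itself did not pass.

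Of the STAT3 targets, 1 of 9 was called higher and 0 lower, against 0.794% and 0.866% of all genes, with a median of 0.06. The gene was Icam1, an adhesion molecule that other pathways also induce, at 655.6, 585.9, 593.2 and 541.5 in apoE-/- replicates, against 458.1, 394.6, 455.9, 392.7 and 392.5 in wild-type replicates. The groups did not overlap, and it rose by 0.48 ± 0.12 (SE, adjusted p = 0.0417, limma). Leaving out apoE-/- replicate 1, 2 or 3, or one of wild-type replicates 2, 4 and 5, put the adjusted p at 0.0723 to 0.131. Of the negative regulators of JAK-STAT signalling, 0 of 17 were called by limma, against 1.66% of all genes in either direction. At an unadjusted p below 0.05 there were 2 of 17, near the 14.8% of all genes, and the median was -0.04.

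**Figure D4:**
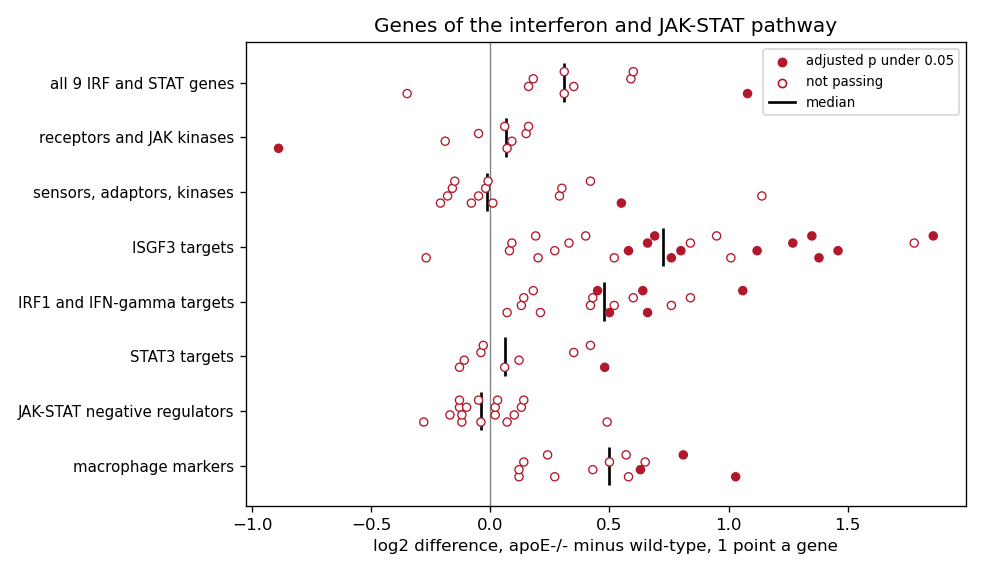
Log2 difference, apoE-/- minus wild-type, of each tested gene by list, 1 point a gene by its brightest probe set, with the list's median as a black line. Filled points were called, among them 11 of 24 ISGF3 targets (median 0.72), or 10 of 22 without the 2 absent on all wild-type arrays. Of the 9 IRF and STAT genes 1 was called (median 0.31). Over all genes 0.794% were called higher, and the median was 0.02.

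Macrophages and microglia express several of these factors, and their tested markers also read higher, though most did not pass. Of the 18 listed markers 13 were tested, and Cd14, Cx3cr1 and Itgam had no present call. Of the 13, 3 were called higher, against 0.794% of all genes, and all 13 read higher, against 53.4%. The differences ran from 0.12 to 1.03, with a median of 0.50. C1qa, a complement subunit made by macrophages, had the largest difference of the list and rose by 1.03 ± 0.18 (SE, adjusted p = 0.0078, limma). The count of 3 was 1 without apoE-/- replicate 3 and 6 without apoE-/- replicate 4. The summed marker signal was 15500 to 22321 in apoE-/- samples and 11597 to 18041 in wild-type samples, highest in apoE-/- replicate 3 and lowest in wild-type replicate 5. Wild-type replicate 1, the lowest sample for Irf7, had the highest marker sum of its group, at 18041 against 11597 to 13657 in the others.

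The mean deviation of these markers per array was 0.01 to 0.48 in apoE-/- samples. It was 0.15 in wild-type replicate 1 and -0.48 to -0.20 in the other wild-type samples. Because it nearly followed genotype, a fit with it as a covariate cannot separate marker level from genotype. In that fit the Irf7 difference was 1.46 (adjusted p = 0.0407, limma). Stat2 was 0.92 and Irf9 0.45 in that fit, against 0.59 and 0.35 without the covariate, and neither passed (adjusted p = 0.245 and 0.301). The differences of Irf5 (0.21), Irf3 (0.13 by 1426111_x_at) and Irf1 (0.02) were smaller with the covariate than without it. Irf8 was -0.13 and Irf2 0.22, both of the opposite sign to the fit without it. The ISGF3 targets called higher were 8 of 24 in that fit and the IRF1 and interferon-gamma targets 2 of 16. Of the lymphocyte markers, 7 of 8 T and NK cell genes and 3 of 5 B cell genes had no present call, while the B cell gene Ms4a1 was present on all 9 arrays and Cd8a, a T cell gene, read 600.1 to 917.5 in apoE-/- and 486.5 to 669.4 in wild-type samples by its brightest probe set. Of 3 such genes tested, 0 were called by limma, against 1.66% of all genes in either direction. By its brightest probe set Cd8a differed by 0.44, with an unadjusted p below 0.05 (limma), as had 14.8% of all genes. Another tested Cd8a probe set, present on all 9 arrays, differed by -0.05 (unadjusted p = 0.874, limma). The higher Cd8a reading was thus not shared by that dimmer probe set. The summed T and NK cell signal was 954 to 1345 in apoE-/- and 874 to 1085 in wild-type samples. The part of these cells in the Irf7 result was not tested, beyond the fits without wild-type replicate 1.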

How the data were processed

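One array per sample was measured for 4 apoE-/- and 5 wild-type samples, grouped by the genotype label. The authors deposited a linear signal intensity and a detection call for each of 45101 probe sets, made with GCOS 1.4 per the submitters' processing notes. How probes were summarised is not stated in those sources. The mean after trimming 2% at each end was 500.0 on every array.

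Intensities were taken to log2. Array medians ranged over 0.2139, above the limit of 0.1, so values were quantile normalized. Probe sets other than the 64 controls that were present on at least 4 of 9 arrays were tested, 21478 in all, with limma 3.58.1 in R 4.3.3 (lmFit on genotype alone, then eBayes with its trend option; two-sided) and Benjamini-Hochberg adjustment. The step was tested on simulated data. Gene symbols came from the annotation of the array design, which gives 1 symbol to 34958 probe sets, more than 1 to 932 and does not list 9211. Of the first kind 34754 matched RefSeq's GRCm38.p6 by gene ID, and the second kind was left out. Levels of different probe sets are not comparable with each other.

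Within a list the brightest tested probe set stood for its gene, and 20 lists with 257 entries, 231 on the array, were used. The members, the lists and the alternatives were chosen with earlier results of these data known. Named were the members, Apoe, up to 4 genes of each list (3 of marker lists) with the smallest p, and the 5 genes most like Irf7. Herc6, Ifit2, Tbk1 and Mavs were named after their values were seen. The alternatives were other scalings, filters, an offset of 50, eBayes without a trend or robust, weighting of arrays, a replicate block, marker covariates, other ways to read a gene, a threshold of 0.1 and each array left out. Promoter windows came from RefSeq, and all 9 genes matched. The number of arrays limits the precision. Detection p-values (9 columns) were set aside because 18 values exceeded 1.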

Additional observations from a re-analysis of the deposited data

Results flagged for a closer look

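The gap of each group's end sample to its nearest neighbour was checked on normalized log2 levels, in 36 groups (18 probe sets in 2 groups). In 4 it took an unusually large share of the group's range (Dixon's test at the 95% level). Chance flags about 1 in 20 groups. The gaps below are shares of that log2 range. The signals printed beside them are linear, and on the linear scale the shares differ. For the tested Irf8 probe set 1416714_at, apoE-/- replicate 4 was the lowest of its group, at 200.5 against 286.0 to 317.7 in the other 3. Its gap was 0.9 of the log2 range. For Stat3 1460700_at, apoE-/- replicate 3 was the highest, at 1282.5 against 975.7 to 1018.8, with a gap of 0.88. For Irf3 1416898_a_at, which had no present call and was not tested, apoE-/- replicate 3 was the lowest at 224.1 (gap 0.865) and wild-type replicate 2 the lowest at 170.0 (gap 0.902).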

How the results depend on the processing

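By probe set and by gene 1 of the IRF and STAT set was called. The count was 0 by either reading when only probe sets present on all 9 arrays were tested, since that filter removes the Irf7 probe set, marginal on wild-type replicate 1. With 1 array left out, the count of probe sets was 1 to 2, with Stat3 1426587_a_at added without apoE-/- replicate 2, and that of genes stayed at 1. Irf7 was called in 20 of 20 alternatives that tested it, at 0.88 to 1.46 and adjusted p 0.00622 to 0.0493 (limma). Under the macrophage marker covariate Irf2 (0.22), Irf8 (-0.13) and Irf3 1435271_at (-0.14) changed sign, none of them called in either fit, and the cause was not tested. Over all alternatives 246 values of the members' probe sets kept their direction and side of the threshold, 3 changed sign and 1 gained a call. The replicate numbers gave no clear pairing: same-numbered deviations correlated at 0.16, -0.015, 0.031 and 0.008, and differently numbered ones at -0.116 to 0.136. The value for replicate 1, 0.16, was the highest of all. With the replicate block Irf7 was 1.08 (adjusted p = 0.0101) and the count of called genes was 1. Of the genes outside the set, 90 values lost and 13 gained a call, and 644 did neither. The number of called ISGF3 targets was 6 with no filter and 6 with no mean-variance trend, and that of IRF1 and interferon-gamma targets was 2 in both.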
